A study of Mus musculus with 27 samples.

Results

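The 10 genes described here encode enzymes of glycolysis, most of them in forms that differ between muscle and other tissues. They are the phosphofructokinases Pfkm and Pfkl, the aldolase Aldoa, the phosphoglycerate mutases Pgam2 and Pgam1, the enolases Eno3 and Eno1, the pyruvate kinase Pkm and the lactate dehydrogenases Ldha and Ldhb. They were taken by symbol from the deposited table of 30153 genes, and all 10 were found. All 10 were also among the 18442 genes that passed the filter on low values, a normalized count of at least 10 in at least 3 libraries.

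The libraries came from Prx1-CreER/Ai14/Rag1 mice of both sexes, 8 to 12 weeks old. In these mice tamoxifen activates a Cre that is driven by the Prx1 promoter, a promoter of limb mesenchyme, and the Ai14 reporter then marks the cells and their descendants with tdTomato, so that a sorted cell need not have expressed Prx1 when it was collected. The Rag1 mutation, which prevents mature lymphocytes, was shared by all groups. At 3 days after tamoxifen, hindlimb bone marrow was flushed and muscle and periosteum were digested with collagenase. From each tissue, Prx1+ CD45- cells were sorted by CD105 and CD200. The cells without CD105 were divided into P1, which is CD200+, and P2, which is CD200-, and all CD105+ cells, whatever their CD200, made up P3. Each of the 9 groups had 3 replicates, 27 bulk libraries in all. The tissues came from the same animals, but the labels do not tie a library to an animal, so the tests treated libraries as independent and their p-values measure the spread between these samples.

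Glycolysis turns glucose into pyruvate. Phosphofructokinase commits sugar to the pathway, aldolase splits it, and mutase, enolase and pyruvate kinase complete the path to pyruvate, which lactate dehydrogenase exchanges with lactate. Skeletal muscle fibres, and fast fibres above all, carry very large amounts of these enzymes. In fibres the M form of phosphofructokinase, the mutase encoded by Pgam2 and the enolase encoded by Eno3 take the place of Pfkl, Pgam1 and Eno1, which most other cells use. Pkm gives more than one splice form and Aldoa and Ldha are used by many cell types, so a gene total for these 3 does not tell the form.

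The deposited values are normalized counts made by the authors from the reads, and they summed to between 8631880 and 26230900 per library. The number of reads behind a value could not be recovered, so the depth in reads is unknown and no counting error is given. The sorted fractions also carried genes of other cells. A list of 17 myofibre marker genes, Acta1 and Ckm among them, summed to between 2823000 and 3446600 in muscle P2 libraries, to between 29382 and 64165 in muscle P1, to between 1880 and 4350 in muscle P3 and to at most 3648 in the other groups. The 4 globin genes took 44.2% to 47.3% of the sum of each bone marrow P2 library, 24.1% to 38.6% of each periosteum P2 library and at most 4.28% of any other library. Of 8 fibroblast or mesenchymal markers, Prrx1 included, none was listed at 0 in all 3 libraries of a group. Their sum was between 1770 and 4718 in bone marrow P2, against at least 34153 in each library of the other groups. The part of myofibre or erythroid RNA in the results that follow was not tested. In bulk samples, fewer cells of a type and less RNA per cell cannot be told apart.

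Muscle P2 stood apart from the other 8 groups in 5 of the 10 enzymes. Pgam2, Eno3, Aldoa, Ldha and Pkm were higher in each of the 3 muscle P2 libraries than in any of the other 24 libraries. The group mean of Pgam2 was 74.0 times that of the next group, that of Eno3 55.1 times, that of Aldoa 41.6 times, that of Ldha 7.98 times and that of Pkm 4.50 times. Pgam1, Eno1 and Pfkl, the counterparts in other cells, were not among them, and each was highest in periosteum P2 or bone marrow P3. The ranges of these 3 in muscle P2 overlapped with those of bone marrow P2, that of Pfkm with bone marrow P3 and that of Ldhb with muscle P1. Together the 10 genes made up 4.48% to 5.43% of the sum of a muscle P2 library and 0.0430% to 0.355% of that of any other library. A gene was called where limma's moderated test gave an adjusted p below 0.05 over the 18442 genes and the log2 fold change was above 1.5 in either direction, the thresholds of the study's own methods. By this rule, 42 of the 180 pairs of a member and a pairwise comparison were called, 26 of the 40 that involve muscle P2 and 16 of the 140 that do not. Over the same comparisons, 21.9% of all pairs of a gene and a comparison with muscle P2 were called and 11.5% of those without it.

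**Figure D1:**
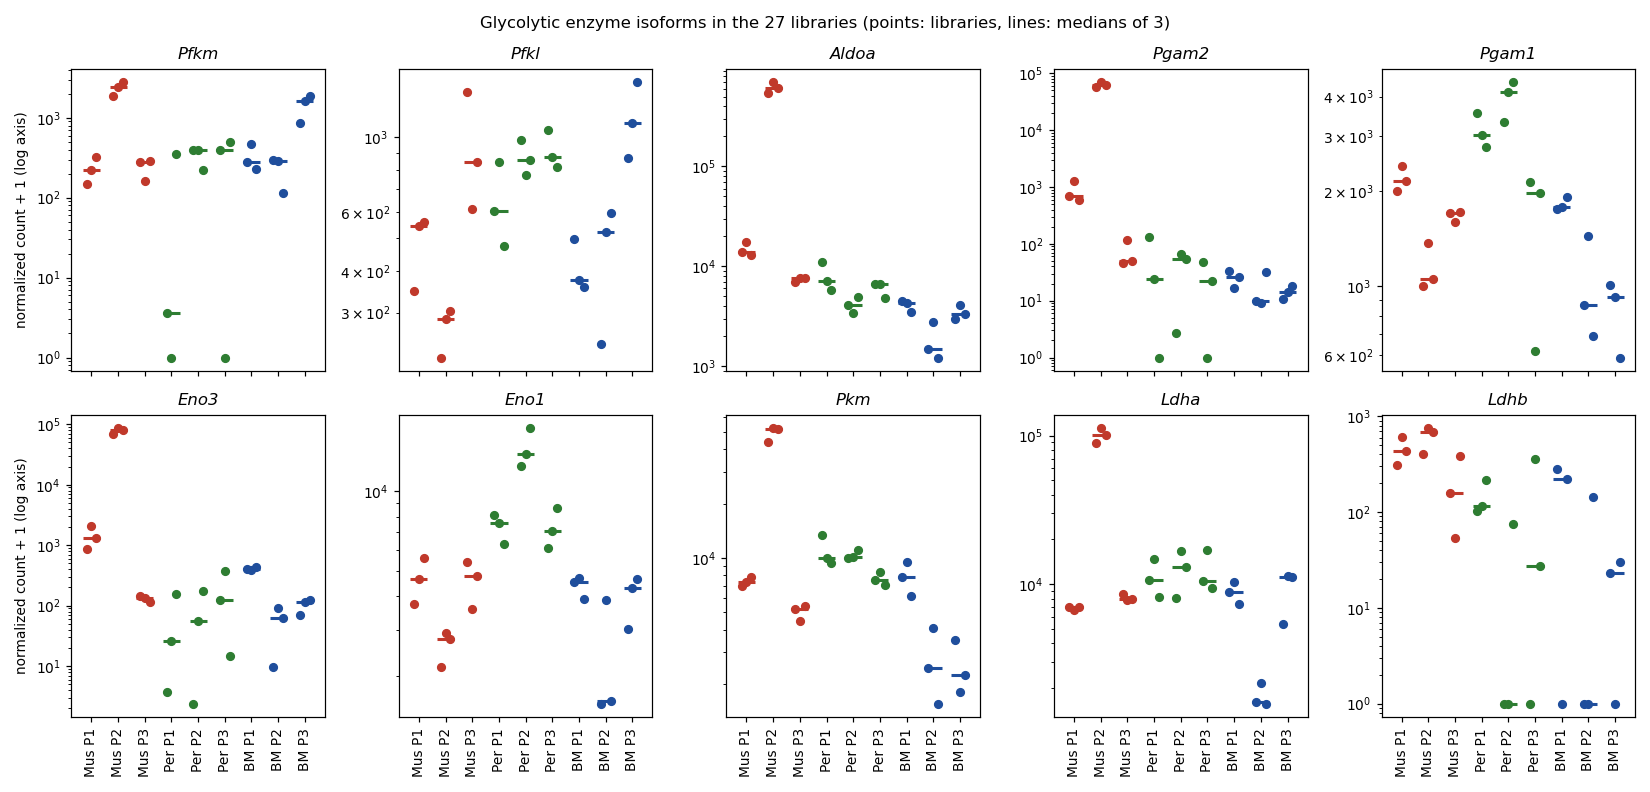
Normalized counts of the 10 enzyme genes in the 27 libraries (vertical log axes, normalized count + 1, each panel with its own range), with 3 points per group, a line at their median, and muscle (Mus), periosteum (Per) and bone marrow (BM) in red, green and blue. The muscle P2 points stand above the 24 others for Aldoa, Pgam2, Eno3, Pkm and Ldha, while Pgam1 and Eno1 are highest in periosteum P2.

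The sequences before the start sites of the muscle-type and the general mutase and of the muscle-type enolase are shown here because the muscle-type genes gave the widest contrasts between the groups and the general mutase was lower in muscle P2 than in periosteum P2. Each is the 250 bases before the gene's start in RefSeq (GRCm38.p6), 5′ to 3′ on the gene's strand. Pgam2 lies on chromosome 11 from 5801640 to 5803733 on the minus strand (GENCODE M21, GRCm38) and its window covers chr11:5803797-5804046. Pgam1 lies on chromosome 19 from 41911923 to 41918660 on the plus strand and its window covers chr19:41911621-41911870. Eno3 lies on chromosome 11 from 70657202 to 70662513 on the plus strand and its window covers chr11:70656926-70657175. Capitals mark the E-box CANNTG, the core ACGTG of the hypoxia response element and the MEF2 element, searched on both strands.
Pgam2: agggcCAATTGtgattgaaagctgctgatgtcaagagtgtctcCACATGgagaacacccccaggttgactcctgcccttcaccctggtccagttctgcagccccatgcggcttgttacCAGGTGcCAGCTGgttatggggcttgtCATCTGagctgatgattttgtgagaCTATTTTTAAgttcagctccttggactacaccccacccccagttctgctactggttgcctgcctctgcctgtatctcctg
Pgam1: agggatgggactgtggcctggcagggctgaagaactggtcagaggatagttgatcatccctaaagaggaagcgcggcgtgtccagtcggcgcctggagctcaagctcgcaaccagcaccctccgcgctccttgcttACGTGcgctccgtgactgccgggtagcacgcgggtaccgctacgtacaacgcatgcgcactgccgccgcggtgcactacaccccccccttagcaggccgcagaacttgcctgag
Eno3: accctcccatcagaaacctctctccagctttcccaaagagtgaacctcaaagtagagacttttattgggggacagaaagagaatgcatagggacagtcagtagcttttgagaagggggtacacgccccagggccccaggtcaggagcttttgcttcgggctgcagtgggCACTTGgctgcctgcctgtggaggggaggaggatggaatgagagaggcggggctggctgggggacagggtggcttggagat
The Pgam2 window held 5 E-boxes, the letters read by myogenic factors such as MyoD, and 1 MEF2 element. The Pgam1 window held 1 ACGTG and no E-box, and the Eno3 window held 1 E-box. Of 32851 promoter windows of the same length in RefSeq, 66.2% held at least 1 E-box, 1.15% held 5 or more, 16.6% held ACGTG and 2.92% held a MEF2 element. The form of the MEF2 element was chosen after these sequences were seen, and a palindromic form of it looked for at first was in none of the 3 windows, in that of Ldhb among the 10 and in 3.20% of all windows. Of the 10 members' windows, 7 held an E-box, 3 held ACGTG and 1 held the MEF2 element. The windows of the general forms Pfkl and Eno1, not shown, held 3 and 2 E-boxes. Those are more than in their muscle-type counterparts, Pfkm with 0 and Eno3 with 1. Ldha held 2, Aldoa and Pkm 1 each and Ldhb 0. TATAAA was in none of the 10 and in 12.4% of all windows. A match of letters is a description and not a bound site.

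Phosphoglycerate mutase moves a phosphate between carbons of phosphoglycerate, and its 2 genes were highest in different groups. Pgam2 was at 56617, 69392 and 61024 in muscle P2, at 687, 1255 and 585 in muscle P1 and at 45.8, 116 and 49.7 in muscle P3. These 3 groups did not overlap, and outside muscle no library was above 129. Pgam2 was listed at 0 in 1 library each of periosteum P1 and periosteum P3, so folds against these groups depend on the pseudocount of 1. Muscle P2 exceeded muscle P1 by a log2 fold change of 6.28 (SE 1.44, limma adjusted p = 0.00581) and muscle P3 by 9.89 (SE 1.44, adjusted p = 3.5e-05). Muscle P1 in turn exceeded periosteum P1 by 5.76 (adjusted p = 0.0185) and bone marrow P1 by 5.03 (adjusted p = 0.0271). The call against periosteum P1 was lost under 5 of the alternatives and left-out libraries and that against bone marrow P1 under 7, and the call of muscle P2 against P1 was lost with a pseudocount of 0.1. Pgam1, the form of most other cells, was at 994, 1369 and 1050 in muscle P2 and at 2002, 2401 and 2159 in muscle P1. The highest Pgam1 values were those of periosteum P2, at 3308, 4146 and 4440, which overlapped with those of periosteum P1, at 3547, 3022 and 2770. In bone marrow P3, the lowest group, Pgam1 was at 1005, 919 and 590. Pgam1 was lower in muscle P2 than in periosteum P2 by a log2 fold change of -1.80 (SE 0.38, limma adjusted p = 0.00093) and higher in periosteum P2 than in bone marrow P2 by 2.05 (adjusted p = 0.000347). The drop of Pgam1 from muscle P1 to P2, at -0.95, stayed within the fold threshold.

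Enolase, the enzyme that makes phosphoenolpyruvate, gave the same order of its forms in muscle. Eno3 was at 68524, 85283 and 81571 in muscle P2, at 863, 2092 and 1317 in muscle P1 and at 141, 131 and 113 in muscle P3. The 3 groups were again apart from each other. The log2 fold change of muscle P2 was 5.87 against P1 (SE 1.31, limma adjusted p = 0.00469) and 9.24 against P3 (SE 1.31, adjusted p = 2.48e-05). Bone marrow P1 held Eno3 at 399, 386 and 431, above every library of the 6 groups ranked below it, and overlapped with neither neighbour. The 17 myofibre markers together came to between 77.5 and 177 in those 3 libraries, less than Eno3 alone. Eno3 was lower in bone marrow P2, at 8.78, 90.3 and 62.4, by a log2 fold change of -3.40 (SE 1.31, limma adjusted p = 0.0463). That call was lost under 23 of the alternatives and left-out libraries. Eno1 was at 2162, 2917 and 2773 in muscle P2 and at 3755, 4656 and 5583 in muscle P1. It peaked in periosteum P2, at 12374, 13828 and 17226, where every library was above every library of the other 8 groups. In bone marrow P2 it was at 1575, 3868 and 1615, of which replicate 2 alone reached the range of bone marrow P3. Eno1 was lower in muscle P2 than in periosteum P2 by -2.46 (SE 0.28, limma adjusted p = 8.29e-07) and higher in periosteum P2 than in bone marrow P2 by 2.74 (adjusted p = 2.03e-07).

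Phosphofructokinase showed another pattern, in which bone marrow P3 came close to muscle P2. Pfkm was at 1896, 2404 and 2777 in muscle P2 and at 872, 1639 and 1897 in bone marrow P3, with the ranges just touching. The other 7 groups had no library above 497, and Pfkm was listed at 0 in 1 library each of periosteum P1 and periosteum P3. In muscle P1 it was at 147, 222 and 322, below every library of muscle P2. The log2 fold change of muscle P2 against P1 was 3.40 (SE 1.70, limma adjusted p = 0.266) and was not called. The spread of a gene was pooled over all 27 libraries, so that of Pfkm includes the periosteal libraries listed at 0. When the 9 muscle libraries were fitted alone, a fit chosen after the data had been seen, the same 3.40 was called (adjusted p = 0.000348), and so were the 3.29 against muscle P3 (adjusted p = 0.000314) and, among the 9 marrow libraries, the 2.15 of P3 against P1 (adjusted p = 0.0134). Pfkm rose in periosteum P2, at 398, 393 and 223, against periosteum P1, at 2.63, 0 and 350, by 4.92 (SE 1.70, limma adjusted p = 0.0432). That call was lost when any of 21 of the 27 libraries was left out. Pfkl, the liver-type subunit, was lowest in muscle P2, at 219, 286 and 302, and highest in bone marrow P3, at 866, 1106 and 1459. It was lower in muscle P2 than in muscle P3, which held 1362, 611 and 844, by a log2 fold change of -1.73 (SE 0.44, limma adjusted p = 0.00993). Without muscle P3 replicate 1 this was no longer called.

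Aldoa, which cleaves fructose bisphosphate, was the most abundant of the 10 by normalized count in muscle P2, at 547347, 694761 and 611149. Muscle P1 came next, at 13810, 17707 and 13017, above every library of the remaining 7 groups. Muscle P3 was at 7000, 7665 and 7564, and bone marrow P2 was lowest, at 1502, 2797 and 1221. Muscle P2 exceeded muscle P1 by a log2 fold change of 5.38 (SE 0.25, limma adjusted p = 1.12e-12) and muscle P3 by 6.38 (adjusted p = 2.8e-14). Muscle P1 exceeded bone marrow P1, which was at 4494, 4270 and 3453, by 1.86 (SE 0.25, limma adjusted p = 1.99e-05).

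Pkm, which makes pyruvate, was at 43759, 52192 and 51588 in muscle P2, at 6974, 7377 and 7868 in muscle P1 and at 5226, 4448 and 5422 in muscle P3. Outside muscle P2 the order ran from periosteum P1, at 13417, 9991 and 9413, to bone marrow P3, at 3480, 1791 and 2234. Pkm was higher in muscle P2 than in muscle P1 by a log2 fold change of 2.73 (SE 0.26, limma adjusted p = 3.29e-07) and than in muscle P3 by 3.29 (adjusted p = 1.08e-08). Within bone marrow, P1 at 7805, 9435 and 6166 stood above both other fractions. The log2 fold change was -1.62 for P2 (SE 0.26, limma adjusted p = 5.2e-05) and -1.68 for P3 (SE 0.26, adjusted p = 0.000144). The value in P3 was lower than that of periosteum P3, at 7514, 8336 and 7085, which exceeded it by 1.66 (adjusted p = 0.000203). The call of P3 against P1 was lost with equal totals per library, at -0.70, with equal totals without globins, at -0.67, with quantile normalization, at -1.46, and without bone marrow P3 replicate 2, at -1.46. That of P2 against P1 was lost with equal totals without globins, at -0.90, and without bone marrow P1 replicate 2, at -1.47, or P2 replicate 3, at -1.28. The call between the P3 groups was lost with equal totals without globins, at 1.48, and without bone marrow P3 replicate 2, at 1.45.

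Lactate dehydrogenase ends the path, and its A subunit favours lactate from pyruvate while the B subunit is typical of oxidative tissue. Ldha was at 89608, 111610 and 100608 in muscle P2 and at 7050, 6698 and 6988 in muscle P1, a log2 fold change of 3.86 (SE 0.28, limma adjusted p = 5.4e-09). Muscle P1 was the second lowest group, since muscle P3 was at 8627, 7812 and 7926 and the 3 periosteal groups lay between 8070 and 17111. Ldha was lowest in bone marrow P2, at 1623, 2178 and 1573, below every other library. Against bone marrow P1, at 8794, 10327 and 7367, the log2 fold change was -2.30 (SE 0.28, limma adjusted p = 1.25e-06), and against bone marrow P3, at 5380, 11285 and 11147, it was -2.31 (adjusted p = 4.13e-06). Ldhb was much scarcer and was listed at 0 in 7 of the 27 libraries, which belonged to 5 groups. It was at 406, 747 and 689 in muscle P2, at 312, 615 and 431 in muscle P1 and at 156, 53.2 and 381 in muscle P3. In periosteum P2 it was listed at 0, 0 and 74.5 and in bone marrow P2 at 0, 0 and 145, and muscle P2 was higher than both (limma adjusted p = 0.0178 and 0.0171). The first call was lost without muscle P2 replicate 2 or either periosteal library listed at 0, and the second without either marrow library listed at 0. Neighbours in the order of Ldhb levels overlapped throughout.

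Put side by side per length of the principal transcript, the isoforms gave each group a composition. Pgam2 made up 99.18%, 99.07% and 99.19% of the mutase pair in the muscle P2 libraries, 42.0%, 52.5% and 36.4% in muscle P1 and 5.38%, 13.4% and 5.78% in muscle P3. Elsewhere its share was at most 8.71% of the pair in a library. Eno3 made up 97.6%, 97.4% and 97.4% of the enolase pair in muscle P2, 23.0%, 36.8% and 23.4% in muscle P1 and 3.29%, 4.53% and 2.99% in muscle P3. Bone marrow P1, with 10.3%, 9.61% and 12.5%, stood above muscle P3 and was the group with the highest Eno3 share outside muscle. Pfkm made up 91.8%, 91.6% and 92.3% of the phosphofructokinase pair in muscle P2, 35.5%, 34.6% and 42.8% in muscle P1, and 56.6%, 65.8% and 62.8% in bone marrow P3. Ldhb was the minor form in every library, with at most 11.1% of the lactate dehydrogenase pair.

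These ratios were compared by exact permutation over libraries, two-sided, with 24 tests adjusted together. Within muscle, the log2 ratio in P2 exceeded that in P1 and P3 by 8.85 for Pgam2 to Pgam1, by 8.37 for Eno3 to Eno1 and by 4.63 for Pfkm to Pfkl, each with exact p = 0.0119, the smallest that 84 splits allow, and adjusted p = 0.0286. Neither periosteum nor bone marrow gave an adjusted p below 0.05 for P2 against P1 and P3 in any of the 4 ratios. The ratio of Ldhb to Ldha went the other way in muscle P2, by -2.52, without passing the adjustment (exact p = 0.0357, adjusted p = 0.0702). Between tissues, with labels exchanged within each subpopulation, muscle exceeded periosteum in the ratio of Pgam2 to Pgam1 by 7.33 (exact permutation, adjusted p = 0.006) and in that of Eno3 to Eno1 by 7.16 (adjusted p = 0.0105). Muscle exceeded bone marrow by 5.93 in the mutase ratio (exact permutation, adjusted p = 0.009) and by 4.17 in the enolase ratio (adjusted p = 0.0105). Each difference between tissues is a mean over P1, P2 and P3, which were unlike. The log2 enolase ratio of muscle against bone marrow was 4.91 against -5.80 in P2, -1.79 against -3.43 in P1 and -5.13 against -5.28 in P3. The mutase ratio was 5.8 against -6.1 in P2, -1.5 against -6.2 in P1 and -4.7 against -5.9 in P3. The enolase ratio was lower in periosteum than in bone marrow by -2.99 (exact permutation, adjusted p = 0.026), and the phosphofructokinase ratio by -3.39 (adjusted p = 0.03). Against muscle, periosteum was lower in the phosphofructokinase ratio by a log2 difference of 3.77 (exact permutation, adjusted p = 0.0286) and in the ratio of Ldhb to Ldha by 3.25 (adjusted p = 0.0204). The 2 libraries in which Pfkm is listed at 0 are both periosteal and enter these values through the pseudocount. So do the libraries of periosteum P1 and P3, 1 each, in which Pgam2 is listed at 0. Ldhb is listed at 0 in 2 libraries of periosteum P2 and 1 of periosteum P3, which enter its 3.25 in the same way.

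**Figure D2:**
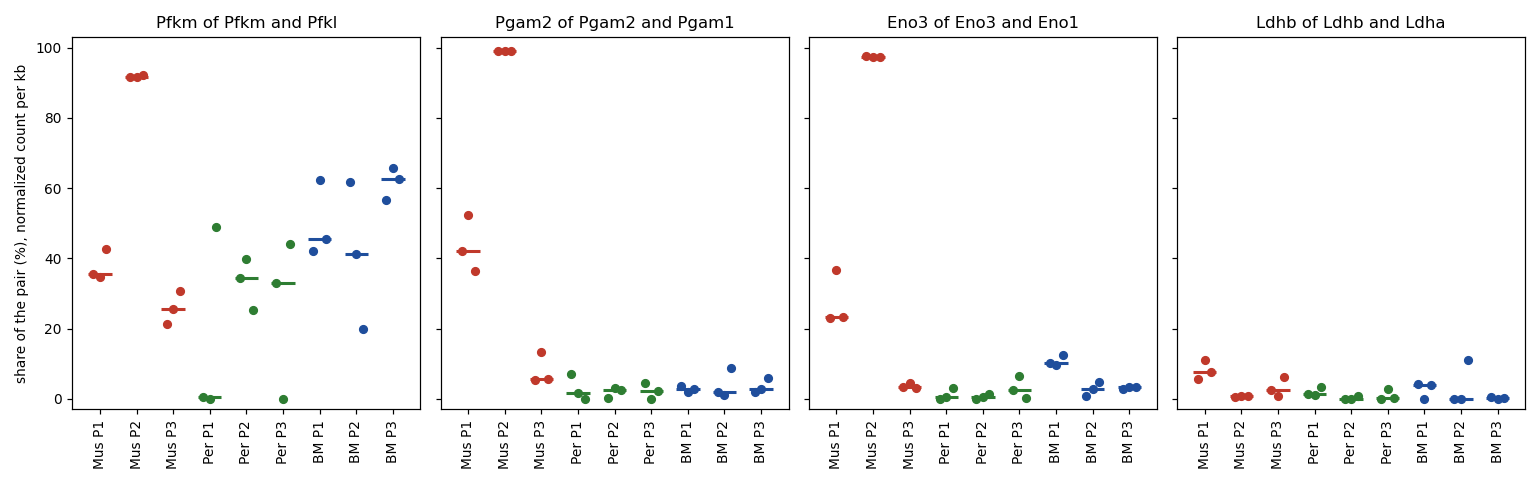
Share of the first gene of each isoform pair in percent (vertical axis, 0 to 100, normalized count per kb of the principal transcript), with 3 libraries per group as points and their median as a line. Muscle P2 lies above 90% for Pfkm, Pgam2 and Eno3, muscle P1 lies between 22.95% and 52.5% for these 3, and Ldhb is below 12% throughout.

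Counted by comparison, 5 of the 10 genes were higher and none lower in muscle P2 than in muscle P1, where 8.21% of all genes tested were called and 4.62% were called higher. Against muscle P3, 5 were higher and 1, Pfkl, was lower, where 11.2% of all genes were called, 5.55% higher and 5.61% lower. Between muscle P3 and P1 none was called by limma, where 0.466% of all genes were, although 4 members had an unadjusted p below 0.05. In the fit of the 9 muscle libraries alone, Pgam2 at -3.61 and Eno3 at -3.37 (limma adjusted p = 0.00419 and 0.00126) were called lower in P3 than in P1.

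In periosteum, Pfkm alone was higher in P2 than in P1, where 19.1% of all genes were called and 8.96% were called higher. None was called in periosteum P3 against P1 by limma, where 4.18% of all genes were and 1 member had an unadjusted p below 0.05. Pgam1 alone was higher in periosteum P2 than in P3, by 1.51 (SE 0.38, limma adjusted p = 0.00799), where 17.1% of all genes were called and 7.79% were called higher. In bone marrow, Eno3, Ldha and Pkm were lower in P2 than in P1, where 34% of all genes were called and 10.4% were called lower. Pkm alone was lower in bone marrow P3 than in P1, where 6.6% of all genes were called and 3.46% were called lower. Ldha alone was lower in bone marrow P2 than in P3, where 20% of all genes were called and 5.38% were called lower. The median log2 fold change of the 10 was 3.07 in muscle P2 against P1 beside -0.24 over all genes, and -1.13 in bone marrow P2 against P1 beside 0.61 over all genes. For the periosteal comparisons, and for bone marrow P2 against P1 and P3, the share of the 10 that was called in either direction was at or below that of all genes. Counted downward, 3 of 10 lower in bone marrow P2 than in P1 was above the background, and the single calls in the other comparisons were 1 of 10 each.

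Across tissues the count depended on the subpopulation. Among P2 cells, 9 of 10 were called between muscle and periosteum, where 28% of all genes were. Pgam2, Eno3, Aldoa, Ldhb, Ldha and Pkm were higher in muscle (background 17.6%), by 2.24 for Pkm to 11.52 for Pgam2 on the log2 scale, and Eno1, Pgam1 and Pfkl were lower (background 10.4%). Between muscle and bone marrow P2, where 40.1% of all genes were called, the same 6 genes were higher in muscle (background 14.1%), from 4.29 for Pkm to 12.09 for Pgam2. Between periosteum and bone marrow P2, where 20% of all genes were called, Eno1, Ldha, Pgam1 and Pkm were higher in periosteum (background 4.65%), by 2.74, 2.77, 2.05 and 2.05.

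Among P1 cells, Pgam2 and Eno3 were higher in muscle than in periosteum, where 4.9% of all genes were called and 4.34% were called higher. Eno3 was higher there by 5.74 (SE 1.31, limma adjusted p = 0.0102). Aldoa and Pgam2 were higher in muscle P1 than in bone marrow P1, where 8.34% of all genes were called and 5.4% were called higher. None was called between periosteum and bone marrow P1 by limma, where 4.87% of all genes were and 4 members had an unadjusted p below 0.05. Among P3 cells, none was called by limma between muscle and periosteum (background 3.5%, 2 members at an unadjusted p below 0.05) or between muscle and bone marrow (background 10.4%, 3 members at an unadjusted p below 0.05). Pkm alone was higher in periosteum P3 than in bone marrow P3, where 6.94% of all genes were called and 2.95% were called higher.

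**Figure D3:**
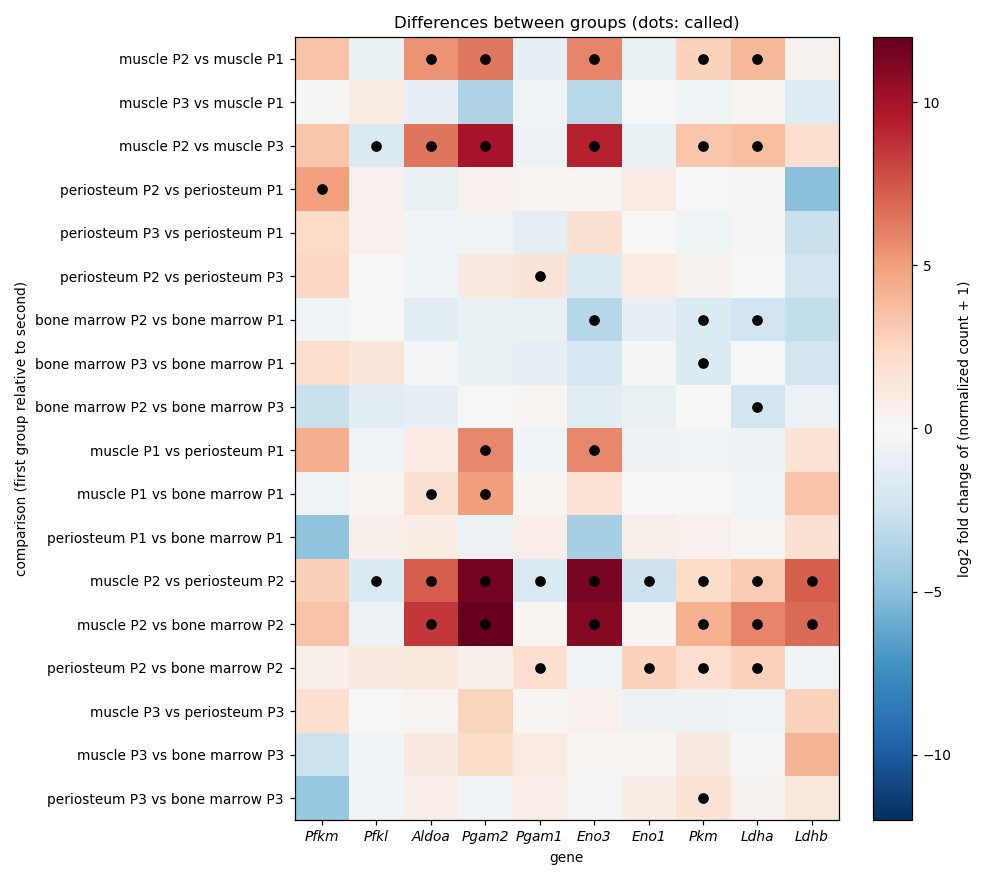
Log2 fold change of each enzyme gene (columns) in the 18 pairwise comparisons (rows, first group relative to second), on a colour scale from -12 to 12, with black dots where the gene was called. The red cells gather in the rows that compare muscle P2 with another group, and Pfkl, Pgam1 and Eno1 are blue or pale there.

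Whether P2 stood apart from the other fractions to a different degree in each tissue was tested directly. The quantity is P2 minus the mean of P1 and P3 on the log2 scale, with its sign, compared between tissues. It differed between muscle and periosteum for 7 of the 10 genes (background 18.3% at an adjusted p below 0.05, 9.35% larger and 8.94% smaller in muscle), between muscle and bone marrow for 5 (background 28.6%, 9.13% larger in muscle) and between periosteum and bone marrow for 2 (background 8.5%, 2.6% larger in periosteum). Eno3 gave 8.28 against periosteum (SE 1.61, limma adjusted p = 0.00102) and 9.95 against bone marrow (SE 1.61, adjusted p = 8.65e-05). Aldoa gave 6.61 and 6.99 (limma adjusted p = 1.24e-12 and 3.47e-13). For Pgam1 and Eno1 the difference between muscle and periosteum was negative, at -1.69 and -1.80 (limma adjusted p = 0.0139 and 0.000968).

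The levels in muscle P1 and P3 were also set beside those of the myofibre markers, as a percentage of the muscle P2 mean. The 17 markers in muscle P1 were at 0.294% to 21.9% of muscle P2, with a median of 1.53%. Pgam2 was at 1.35%, Eno3 at 1.82% and Aldoa at 2.40%, inside the range of the markers and near their median. Ldha was at 6.87%, Pfkm at 9.77%, Pkm at 15.1% and Ldhb at 73.7%, and Pgam1, Eno1 and Pfkl were above 100%. In muscle P3 the markers had a median of 0.0984%, with Pgam2 at 0.113% and Eno3 at 0.164%, while Aldoa was at 1.20%, Ldha at 8.07%, Pkm at 10.2%, Pfkm at 10.4% and Ldhb at 32%. By library, the marker sums of muscle P1 were 39945, 64165 and 29382, and replicate 2 was highest in these sums and in Pgam2, Eno3 and Aldoa. Eno3 did not follow the sums of replicates 1 and 3, at 863 and 1317. In muscle P2 the order was the reverse, since replicate 2 had the lowest sum, 2823000, and the highest Pgam2, Eno3 and Aldoa, and replicate 1 the highest sum, 3446600, and the lowest of all 3 genes. Satellite cell markers, 6 genes, summed to between 3865 and 6832 in muscle P1 and to between 1382 and 1467 in muscle P2. Between these groups, 8.21% of all genes were called and 4.62% were called higher in muscle P2. Called higher were 16 of 17 myofibre, 9 of 11 erythroid (median log2 fold change 5.02) and 4 of 8 cycling markers. Called lower were 4 of 6 satellite cell, 6 of 8 osteoblast, 4 of 6 chondrocyte and 1 of 8 fibroblast or mesenchymal markers. No leukocyte or endothelial marker was called. The part of these cells in the enzyme values was not tested.

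**Figure D4:**
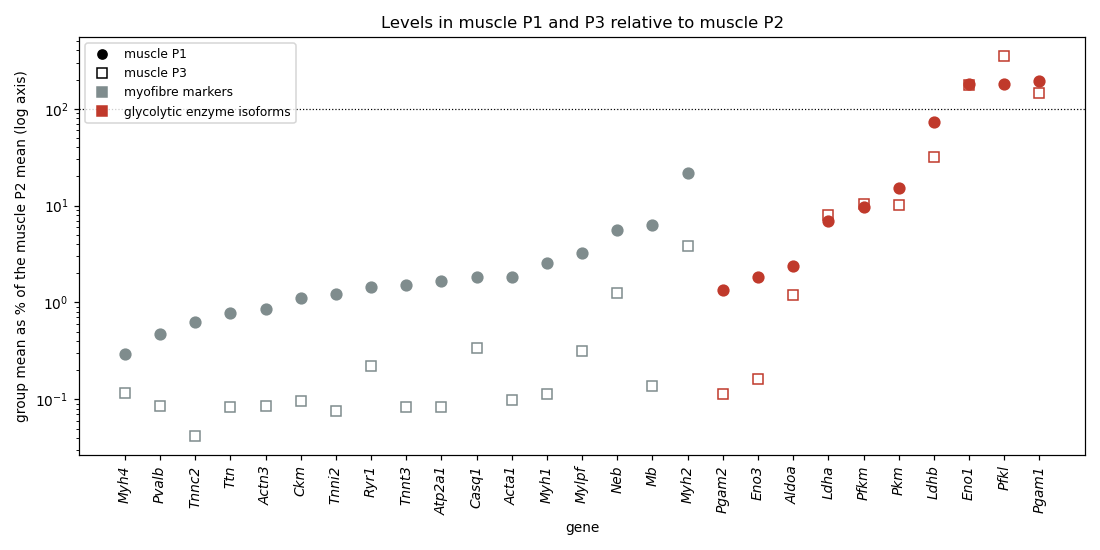
Group mean of muscle P1 (filled circles) and muscle P3 (open squares) as a percentage of the muscle P2 mean (vertical log axis, dotted line at 100%) for 17 myofibre markers in grey and the 10 enzyme genes in red. Pgam2, Eno3 and Aldoa of muscle P1 lie at 1.35% to 2.40%, near the marker median of 1.53%, while Eno1, Pfkl and Pgam1 lie above 100%.

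The other genes of the pathway were read from lists of other glycolytic enzymes, transporters, regulators and glycogen enzymes. A last list held creatine and adenylate kinases with other enzymes of adenine nucleotides. Among 16 other glycolytic enzymes tested, 6 were higher and none lower in muscle P2 than in muscle P1, where 8.21% of all genes were called and 4.62% were called higher. They included Gapdh, the dehydrogenase that follows aldolase, which was at 288919, 333702 and 273911 in muscle P2 and at 11825, 16693 and 15280 in muscle P1 (log2 fold change 4.36, SE 0.21, limma adjusted p = 1.12e-12). Gpi1, which makes fructose phosphate, was higher by 2.21 (SE 0.35, limma adjusted p = 0.000154). The median log2 fold change was 0.03 for these other enzymes, 0.81 for transporters, 2.08 for regulators and 3.52 for glycogen enzymes. It was 5.34 for the list of kinases and adenine nucleotide enzymes, beside -0.24 over all genes. Of 12 glycogen enzymes, 4 were higher, among them Pygm, the muscle phosphorylase (log2 fold change 5.61, SE 1.43, limma adjusted p = 0.0132), and Phkg1, the muscle phosphorylase kinase subunit (5.77, adjusted p = 0.000464). Of 8 genes in the list of kinases and adenine nucleotide enzymes, 5 were higher, with Ckm at 6.56 and Ampd1 at 6.73 (limma adjusted p = 0.00211 and 0.00217). Ckm is a creatine kinase, which buffers ATP, while Ampd1 is an AMP deaminase. Adssl1, also among the 5, is not a kinase either. Of 13 regulators, 3 were higher, with Fbp2, the muscle fructose bisphosphatase, at 6.15 (limma adjusted p = 0.00236) and Pdk2, which restrains pyruvate dehydrogenase, at 4.68 (adjusted p = 0.0242). None of 7 glucose and lactate transporters was called by limma in muscle P2 against P1, and Slc2a4, the insulin-responsive glucose transporter, was at 2210, 6716 and 3394 against 594, 1360 and 865.

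In periosteum and bone marrow, P2 also differed from P1 in genes of these lists. Bpgm, the mutase that makes 2,3-bisphosphoglycerate in red cells, was at 4089, 20389 and 12641 in periosteum P2 and at 623, 304 and 197 in periosteum P1 (log2 fold change 4.92, SE 0.53, limma adjusted p = 4.4e-07). In bone marrow P2 it was at 17781, 22899 and 22143, higher than in P1 by 4.10 (SE 0.53, limma adjusted p = 2.93e-06). Muscle P2 was also higher in Bpgm, at 3803, 4047 and 3529 against 228, 231 and 180 in muscle P1, by 4.16 (limma adjusted p = 1.1e-05). Slc16a1, a lactate carrier, and Slc2a4 were called higher in P2 in both tissues. Slc16a1 rose by 4.50 in periosteum (limma adjusted p = 5.55e-05) and by 4.66 in bone marrow (adjusted p = 1.88e-05). Bsg, the partner of lactate carriers, was higher in periosteum P2 by 1.59 (SE 0.27, limma adjusted p = 0.000172). Hif1a and Epas1, the oxygen-regulated factors, were lower in bone marrow P2 by -2.96 and -3.21 (limma adjusted p = 5.68e-05 and 0.000399). In periosteum P2, Epas1 was lower by -1.98 (limma adjusted p = 0.0272) and Hif1a was not called, at 0.23. The drops also included Ckb, the brain-type creatine kinase, by -6.35 in periosteum and -6.81 in bone marrow (limma adjusted p = 0.000219 and 4.99e-05). Pygb, the brain-type phosphorylase, was lower in periosteum P2 by -4.98 (limma adjusted p = 0.0108). In bone marrow P2, Ak1, an adenylate kinase, Pdk4, a kinase of pyruvate dehydrogenase, and Pgm2, a phosphoglucomutase, were lower by -5.80, -5.47 and -3.25 (limma adjusted p = 3.44e-07, 0.000669 and 0.00103). The 11 erythroid markers summed to between 8074400 and 12840000 in bone marrow P2, to between 3458000 and 9568500 in periosteum P2 and to at most 505690 in any other library. Their part in these values was not tested.

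Scaling touched the bone marrow P2 values, because the globins fill much of those libraries. With every library brought to the same total without the 4 globin genes, the log2 fold change from bone marrow P1 to P2 was -1.58 for Ldha, still called, -0.90 for Pkm and -2.70 for Eno3, both not called. With equal totals including globins the values were -2.44, -1.75 and -3.52, and with quantile normalization -2.17, -1.52 and -4.90, and all 3 genes were called under both. The globin-free rescaling moved the median of all genes in this comparison by 0.635, so a difference of this size is not specific to the enzymes. Across the 18 comparisons and 3 rescalings the median of all genes moved by -1.01 to 0.996.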

How the data were processed

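RNA of sorted Prx1+ CD45- cells was made into SMART-Seq and Nextera XT libraries and sequenced. The authors trimmed the reads with Trim Galore, aligned them with STAR and used DESeq2; the genome build, annotation and counter are not given in the sources used here. The deposited values are a signal: normalized counts as the authors made them, where the value of 1 read changes from gene to gene, so reads and depth could not be recovered. One row that names no gene was left out. Values were taken as log2(normalized count + 1) and fitted with limma 3.58.1 (R 4.3.3; lmFit, eBayes with trend) with a mean for each of 9 groups, over 18442 genes with at least 10 in at least 3 libraries, and Benjamini-Hochberg adjustment per comparison. Isoform shares are per kb of the principal GENCODE M21 transcript. Isoform ratios, of normalized count + 1 without division by length, were compared by exact permutation in Python 3.11.15 (24 tests adjusted together). Promoter windows are RefSeq's, GRCm38.p6. The fit was tested on simulated data.

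Groups were taken from the titles. Members, gene lists and tests were chosen with earlier results of these data known. Genes named from the lists are the 3 with the highest mean and the called ones with the largest change in P2 against P1, per list. One gene named by this rule is not reported here. Alternatives were pseudocounts of 0.1 and 5, no filter or a minimum mean of 50, a block for the replicate number, no trend in eBayes, 3 rescalings and each library left out, and, chosen after seeing the data, each tissue fitted alone.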

Additional observations from a re-analysis of the deposited data

Results flagged for a closer look

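The difference between tissues in how far P2 stood from the mean of P1 and P3 passed its own test (a contrast in limma, adjusted p below 0.05) for 14 pairs of a gene and a pair of tissues. Between muscle and periosteum it was 8.28 for Eno3, 7.30 for Pgam2, 6.61 for Aldoa, 3.66 for Ldha and 2.82 for Pkm, all larger in muscle, and -1.69 for Pgam1 and -1.80 for Eno1, both larger in periosteum, on the log2 scale. Between muscle and bone marrow it was 9.95 for Eno3, 8.47 for Pgam2, 6.99 for Aldoa, 6.05 for Ldha and 3.79 for Pkm. Between periosteum and bone marrow it was 2.39 for Ldha and 1.93 for Eno1. With a pseudocount of 0.1, the Pgam2 difference between muscle and periosteum no longer passed. The myofibre marker sums of muscle P2 and the globin shares of periosteum and bone marrow P2, given above, differ between the same groups. So do the erythroid, cycling, satellite cell, osteoblast and chondrocyte markers named for muscle P2 against P1. The part of all these was not tested. With 3 libraries per group, no library was tested for standing apart from its group.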

How the results depend on the processing

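Of the calls of the 10 genes over 21 comparisons, 56 in all, 14 were lost under at least 1 alternative or left-out library. The number called in muscle P2 against P1 was 5 without each library in turn. In periosteum P2 against P1 the 1 call became 0 with a pseudocount of 0.1, no filter, eBayes without trend, equal totals, quantile normalization or the tissue fitted alone. In periosteum P2 against P3 the 1 became 0 with equal totals, equal totals without globins, quantile normalization or the tissue fitted alone. A pseudocount of 0.1 left 1 of 2 in muscle P1 against periosteum P1 and 1 of 2 against bone marrow P1. In bone marrow P2 against P3 the 1 became 4 with equal totals and 2 without globins or with the tissue alone. Equal totals without globins left 1 of 3 in bone marrow P2 against P1 and 0 of 1 in periosteum P3 against bone marrow P3, raised the genes whose P2 difference varied between muscle and bone marrow from 5 to 8, and turned Eno1 there from 0.14 to -0.76. The tissue fitted alone gave 2 in muscle P3 against P1 and 2 in bone marrow P3 against P1. The causes were not tested.

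Leaving out each library gave, for calls, 0 to 1 in periosteum P2 against P1 (lost without any of 21 libraries), P3 against P1 (1 without periosteum P3 replicate 2) and P2 against P3 (0 without periosteum P2 replicate 2 or 3 or P3 replicate 2). In bone marrow it gave 1 to 4 for P2 against P1 (1 without P1 replicate 2 or P2 replicate 3), 0 to 2 for P3 against P1 (0 without P3 replicate 2, 2 without P3 replicate 1) and 1 to 2 for P2 against P3 (2 without P2 replicate 2 or 3 or P3 replicate 1). In P1 cells it gave 0 to 3 for muscle against periosteum (0 without muscle replicate 2, 1 without muscle replicate 1 or 3 or periosteum replicate 1), 1 to 2 for muscle against bone marrow (1 without any of the 6 libraries compared) and 0 to 2 for periosteum against bone marrow (2 without periosteum P1 replicate 3, 1 without periosteum P2 replicate 1 or P3 replicate 2). In P3 cells it gave 0 to 2 for periosteum against bone marrow (0 without bone marrow P3 replicate 2, 2 without periosteum P1 replicate 3 or P3 replicate 1 or 3), and 2 to 4 for the P2 difference between periosteum and bone marrow (4 without bone marrow P2 replicate 2).

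For ratios in muscle P2, leaving out each library gave -2.98 to -2.23 for Ldhb to Ldha, 4.47 to 4.77 for Pfkm to Pfkl, 8.42 to 9.27 for Pgam2 to Pgam1 and 7.98 to 8.83 for Eno3 to Eno1, and the last 3 did not pass without any of the muscle P2 libraries, where fewer splits raise the smallest p. The first passed without muscle P3 replicate 2. Between tissues, Pfkm to Pfkl ran from 2.80 to 4.67 (muscle against periosteum, not passing without any muscle P1 library) and from -4.29 to -2.42 (periosteum against bone marrow, not passing without periosteum P2 replicate 3 or, except bone marrow P2 replicate 2 and 3, any marrow library), and Ldhb to Ldha from 2.07 to 3.82 (muscle against bone marrow, passing without bone marrow P2 replicate 3).

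Libraries with the same replicate number did not deviate together (mean r 0.000242 over 36 pairs of groups, from -0.0592 to 0.0502). With the replicate number as a block no count of calls moved past 1.5 times. The ratios kept their values, but all 11 that had passed no longer did, with adjusted p from 0.0563 to 0.0808 and a smallest raw p of 0.037 within a tissue and 0.00391 between tissues: 3.25 for Ldhb to Ldha and 3.77 for Pfkm to Pfkl in muscle against periosteum, 4.63, 8.85 and 8.37 for Pfkm, Pgam2 and Eno3 ratios in muscle P2, -3.39 and -2.99 for Pfkm and Eno3 ratios in periosteum against bone marrow, and 7.33, 5.93, 7.16 and 4.17 for Pgam2 and Eno3 ratios in muscle against periosteum and bone marrow. The unknown depth limits what low values, such as Ldhb and Pgam2 outside muscle, can show.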

Other observations

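The genes whose 9 group means followed a member most closely were read off as a description, with no test, over means that share libraries. Pgam2 was nearest to Actn3, the fast-fibre actinin (Pearson r = 0.998), Aldoa to Mafa (0.987), Pkm to Gng5 (0.980), Pgam1 to Stc2 (0.977) and Eno3 to Gbas (0.976). Among the members themselves, Pgam2 and Eno3 had r = 0.947 and Pgam1 and Eno1 had r = 0.806, while Pgam2 and Pgam1 had r = -0.14 and Eno3 and Eno1 had r = -0.485.

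Near-identical copies of the enzyme genes were low in every library, at most 44.7 for Eno1b, 22.3 for Aldoart1, 14.8 for Aldoart2, 34.1 for Pgam1-ps1 and 78.5 for Pgam1-ps2. How the authors' counting shared reads between these and the members is not given in the sources used here.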
